A study of Homo sapiens with 18 samples.

Results

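H3K27me3 formed 1021 domains of at least 100 kb in MDA-MB-231 cells, out of 37287 joined regions of any length on chromosomes 1 to 22. A domain was made by joining H3K27me3 peaks whose gap was 3 kb or less, so the domains were chosen by the positions of H3K27me3 peaks, and lengths, coverage and folds of that mark are given as a description. The domains summed to 213 Mb, or 7.59% of the 2808 Mb spanned by the lists, and held 47.9% of all base pairs under H3K27me3 peaks.

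MDA-MB-231 is an established human breast cancer line of the triple-negative class, meaning that it lacks oestrogen receptor, progesterone receptor and HER2. ChIP-seq, which sequences DNA bound by an antibody's target, was done on parental cells for KDM2B, MYC, ATF4, H3K4me3, H3K27me3 and H2AK119ub, and on cells with an empty vector for H3K27ac, each stock with input DNA, in 18 libraries that form 9 groups of 2; the labels name no other treatment. Peaks of 6 targets were analysed from 1 list per target, and ATF4 was not analysed here. A list does not resolve the libraries of its group, so no value below has an error between replicates, read depth is unknown, and differences between places in the genome were described and not tested; the H3K27ac list also comes from a different cell stock than the others.

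H3K27me3 is written by Polycomb repressive complex 2 (PRC2), whose catalytic subunit is EZH2 or EZH1, and marks genes of other lineages that a cell keeps silent. H2AK119ub, ubiquitin on histone H2A, is written by PRC1. The complexes can recruit each other, and a PRC2 subunit that binds H3K27me3 allows the mark to spread from a CpG island over long stretches of chromatin. KDM2B binds unmethylated CpG DNA and brings a variant PRC1 to CpG islands. H3K4me3 marks promoters, H3K27ac marks active promoters and enhancers and cannot sit on the same lysine as H3K27me3, and MYC is a transcription factor found mainly at active promoters.

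Promoters in the longest domains ranged from dense CpG islands to stretches without any CG. The 250 bases upstream of 5 gene starts are shown to give that range, as RefSeq sequence of GRCh38.p14, 5′ to 3′ on the strand of the gene, with each CG pair in capitals. CNTN4 (chr3:2098616-2098865, plus strand) and TMEM132E (chr17:34579332-34579581, plus strand) had 40 and 32 CG pairs. These were the most among outermost starts with a promoter record in the 10 longest domains. Some genes of these domains, such as NELL1 and LRFN2, had no start in the records used. BBOX1 (chr11:27040565-27040814, plus strand) and LRRC52 (chr1:165543750-165543999, plus strand) had 0 CG pairs. These 4 starts had an H2AK119ub peak within 1 kb and no peak of H3K4me3, H3K27ac, KDM2B or MYC. MOCS1 (chr6:39934463-39934712, minus strand, 16 CG pairs) is shown as the exception among the recorded starts, with peaks of all 5 lists within 1 kb.
CNTN4: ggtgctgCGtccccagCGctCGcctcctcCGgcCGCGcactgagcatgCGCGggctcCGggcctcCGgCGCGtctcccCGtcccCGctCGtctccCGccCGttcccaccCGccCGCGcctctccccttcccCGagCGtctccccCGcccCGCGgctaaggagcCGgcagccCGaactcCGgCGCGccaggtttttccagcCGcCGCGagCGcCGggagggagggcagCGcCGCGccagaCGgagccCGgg
TMEM132E: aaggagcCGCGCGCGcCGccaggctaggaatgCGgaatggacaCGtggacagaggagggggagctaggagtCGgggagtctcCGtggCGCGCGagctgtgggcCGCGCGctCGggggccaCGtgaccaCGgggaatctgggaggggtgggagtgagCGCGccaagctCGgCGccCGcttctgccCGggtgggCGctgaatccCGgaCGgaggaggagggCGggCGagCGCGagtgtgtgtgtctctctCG
BBOX1: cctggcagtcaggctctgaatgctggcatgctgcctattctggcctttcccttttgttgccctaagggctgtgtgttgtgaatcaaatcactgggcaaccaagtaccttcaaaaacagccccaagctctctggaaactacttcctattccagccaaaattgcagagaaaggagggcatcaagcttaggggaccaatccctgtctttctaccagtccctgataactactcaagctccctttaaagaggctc
LRRC52: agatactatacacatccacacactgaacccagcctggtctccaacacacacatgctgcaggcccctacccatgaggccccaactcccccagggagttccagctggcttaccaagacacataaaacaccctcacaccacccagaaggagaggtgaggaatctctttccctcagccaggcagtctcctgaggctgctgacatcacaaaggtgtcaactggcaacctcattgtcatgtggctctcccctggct
MOCS1: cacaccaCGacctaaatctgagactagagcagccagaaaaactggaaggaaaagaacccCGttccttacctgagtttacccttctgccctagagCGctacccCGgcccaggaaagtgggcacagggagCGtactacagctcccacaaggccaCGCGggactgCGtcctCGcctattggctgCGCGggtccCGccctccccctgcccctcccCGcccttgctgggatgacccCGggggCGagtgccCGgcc

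Of 1461 microRNA hairpins in the records used, 89 lay wholly inside domains (6.09%), and 4 of the 89 had an H3K4me3 peak within 1 kb (4.49%, against 31.0% of all hairpins). Mature sequences of these 4 hairpins are shown as the exceptions with H3K4me3 nearby, from RefSeq, with the seed (bases 2 to 8) in capitals. No seed was shared among the 6 mature sequences. MIR148A (chr7:25949919-25949986) and MIR6891 (chr6:31355224-31355316) had peaks of all 5 other lists within 1 kb. MIR6891 lies within an H3K4me3 peak (chr6:31351942-31358982) that is 160 bp from the start of HLA-B, which encodes an MHC class I protein. To which gene the peaks near MIR6891 belong was not tested. MIR135B (chr1:205448302-205448398) had H2AK119ub, H3K4me3 and H3K27ac, and MIR3185 (chr17:48724408-48724475) had H2AK119ub and H3K4me3.
hsa-miR-148a-3p: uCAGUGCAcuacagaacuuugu
hsa-miR-6891-5p: uAAGGAGGgggaugagggg
hsa-miR-6891-3p: cCCUCAUCuuccccuccuuuc
hsa-miR-135b-5p: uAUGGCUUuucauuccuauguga
hsa-miR-135b-3p: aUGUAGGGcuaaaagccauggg
hsa-miR-3185: aGAAGAAGgcggucggucugcgg

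Domains had a median length of 160 kb, with quartiles of 124 and 231 kb and a longest domain of 1671 kb. At least 200 kb was reached by 334 domains, 500 kb by 53 and 1 Mb by 3. The 5 regions nearest the limit from below measured 99545 to 99908 bp, among them chr1:118080090-118179634 and chr2:96873715-96973622. The 5 nearest from above measured 100020 to 100416 bp, among them chr1:201029296-201129315 and chr4:151815823-151916238. H3K27me3 covered 37.3% to 86.6% of the regions just outside the limit and 55.3% to 91.3% of those just inside.

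Each domain was built from 12 to 699 H3K27me3 peaks (median 68), which covered 40.6% to 98% of its length (median 78.8%). Coverage was above 90% in 126 domains and below 50% in 14. Peaks inside domains had a median fold of 3.14, the authors' enrichment over background at the summit, and a median width of 860 bp, against 2.56 and 458 bp for the remaining H3K27me3 peaks. The domain of DSCAML1, a cell adhesion gene of neurons, was covered to 98% (chr11:117416865-117820572), and its peaks had a median fold of 6.62, the highest median of any domain.

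Chromosome 20 stood out. Its 69 domains took up 28.3% of its span, or 1.07 domains per Mb. Chromosomes 11 and 17 followed with 16.3% and 12.8%. Chromosome 4 had 9 domains over 0.800% of its span, and chromosomes 13 and 6 had 2.93% and 3.13%. Peaks of both Polycomb marks were also more frequent on chromosome 20 than on chromosome 4. Chromosome 20 had 174 H3K27me3 peaks and 207 H2AK119ub peaks per Mb, and chromosome 4 had 33.5 and 16.5. H3K27ac differed less between the 2 chromosomes, with 37.7 and 24.1 peaks per Mb, and protein-coding genes numbered 8.35 and 4.05 per Mb. Chromosome 20 was not the highest in H2AK119ub peaks. Chromosomes 19 and 22 had 227 and 208 per Mb, with 8.51% and 11.9% of their spans in domains.

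**Figure D1:**
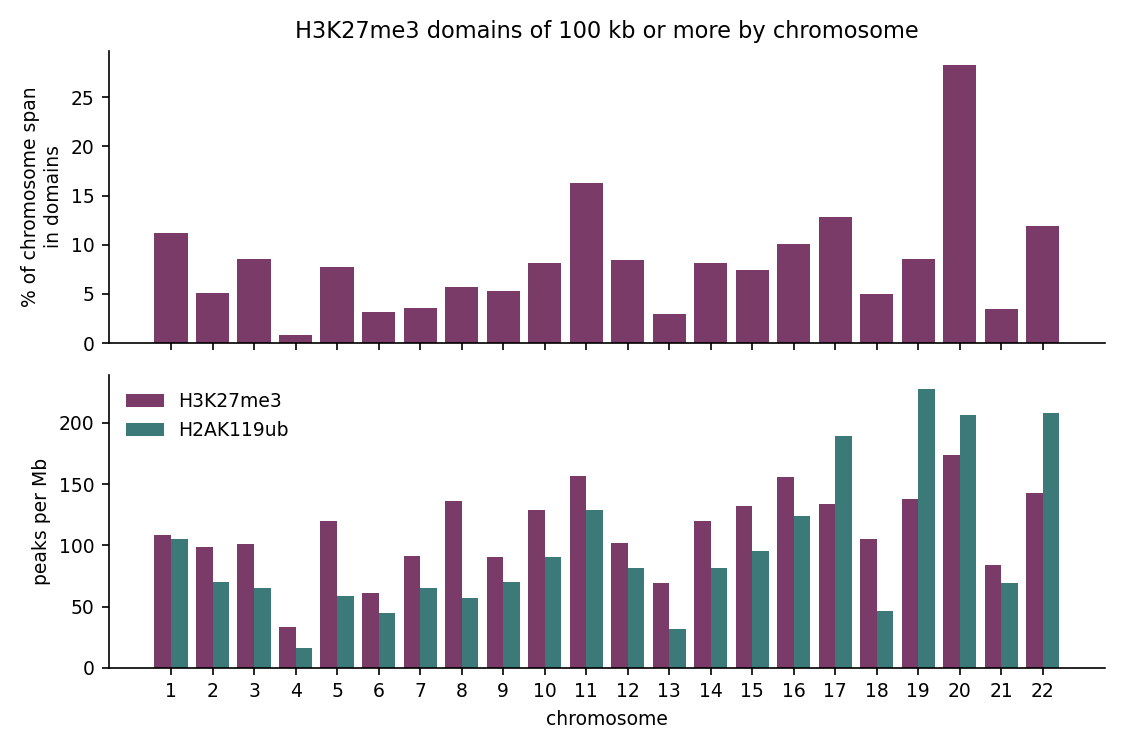
Upper panel, percent of each autosome's span inside H3K27me3 domains of at least 100 kb; lower panel, H3K27me3 and H2AK119ub peaks per Mb of the same chromosomes. Chromosome 20 has the tallest upper bar at 28.3% and chromosome 4 the shortest at 0.800%, and chromosome 4 also has the fewest peaks of both marks.

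H2AK119ub was present in all 1021 domains. At least 1 H2AK119ub peak overlapped 100% of the domains, against 43.5% of joined H3K27me3 regions of any length. Under H2AK119ub peaks with a deposited q-value below 1e-5, the share of domains was 98.1%. Longer regions meet a peak more easily, so densities are the fairer comparison: 358 H2AK119ub summits per Mb in domains, 259 in regions of 20 to 100 kb, 192 in the 100 kb flanks of domains and 83.0 over the whole span. H2AK119ub peaks covered 27.7% of domain base pairs, 19.0% in the regions of 20 to 100 kb, 13.9% in flanks and 5.96% over the span.

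The share of a domain under H2AK119ub varied widely, from 0.605% to 95.1%, with a median of 20.7% and quartiles of 8.88% and 39.9%. In 288 domains the share was under 10%, and in 16 it was 80% or more. Inside domains, H2AK119ub lay where H3K27me3 lay. It covered 34.0% of the base pairs under H3K27me3 peaks and 2.99% of the base pairs in the gaps between them, and 98.4% of its summits in domains were on an H3K27me3 peak.

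Domains with denser H3K27me3 had more H2AK119ub. The domains were put into 4 classes of nearly equal size by H3K27me3 coverage. In the lowest class (40.6% to 69.9%), the median share under H2AK119ub was 5.67%. In the next 2 classes it was 14.8% and 25.3%, and in the class with the highest coverage (86.0% to 98%) it was 47.5%. Across the 1021 domains Pearson's r was 0.719 and Spearman's rho 0.810, given as a description: both lists come from the same cell stock, and chromosome, local read depth and base composition are shared by the 2 marks in a domain. With length, rho was 0.182. The classes overlapped: the highest share in the lowest class was 48.5%, and the lowest share in the highest class was 12.1%.

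**Figure D2:**
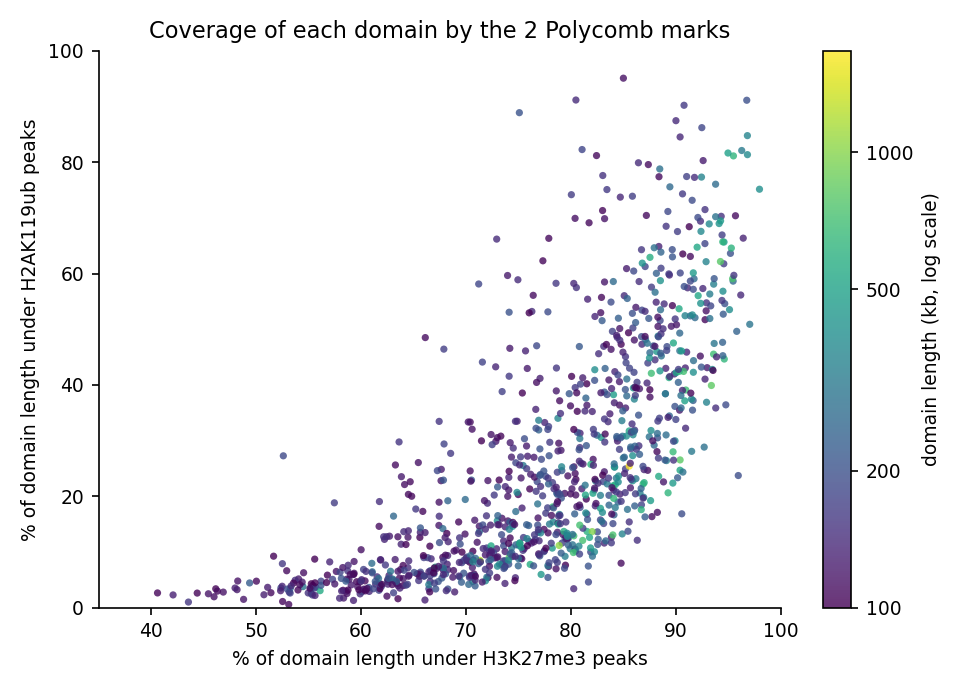
Each point is a domain (n = 1021), with the percent of its length under H3K27me3 peaks on the horizontal axis, the percent under H2AK119ub peaks on the vertical axis and its length as colour on a log scale. Points rise from near 0 at the left to between 12.1% and 91.1% where H3K27me3 coverage is 86.0% or more, with wide scatter at any given H3K27me3 coverage.

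Among the domains with the most H2AK119ub were those of MEGF6 (chr1:3505277-3618984, 95.1% of its length), of CACNA2D2 and C3orf18 (chr3:50363223-50561792, 91.1%), of ADGRB1 and ARC on chromosome 8 (90.2%), and of SLC12A7 and SLC6A19 (chr5:1066722-1271281, 88.9%). CACNA2D2 encodes an auxiliary calcium channel subunit. These 4 domains were 114 to 205 kb long and carried few but wide H2AK119ub peaks. The MEGF6 domain had 18 such summits in 114 kb. All 4 also held H3K4me3 and MYC peaks: 9 and 13 in the MEGF6 domain, 7 and 13 with ADGRB1, 7 and 9 with SLC12A7, and 2 and 3 with CACNA2D2. H3K27ac and KDM2B peaks were in the domains of MEGF6 (4 and 4), SLC12A7 (3 and 1) and ADGRB1 (1 and 1). The CACNA2D2 domain had none of either.

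At the low end, the domain within TRPM3, a cation channel gene, had 0.605% of its length under H2AK119ub (chr9:71033655-71142295). The domain overlapping part of FRY (chr13:31970858-32126587) and that within C12orf42 (chr12:103290300-103396377) had 1.04% and 1.14%. A domain without a protein-coding gene (chr5:67866927-67996187) had 1.33%, and that of HS3ST4, a heparan sulphate sulfotransferase (chr16:25811133-25940671), had 1.40%. H3K27me3 covered 43.6% to 66.1% of these 5 domains, below the median of all domains. In 4 of the 5 no H3K4me3, H3K27ac, KDM2B or MYC peak was found; the FRY domain had 1 H3K4me3, 1 KDM2B and 1 MYC peak.

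Peaks of the active marks and of the factors were thin inside domains and dense beside them. H3K27ac had 1.75 summits per Mb in domains, 50.1 in their 100 kb flanks and 33.4 over the span. H3K4me3 had 8.17 in domains, 43.6 in flanks and 25.0 over the span. MYC had 6.31, 34.5 and 17.5, and KDM2B had 1.65, 11.8 and 7.06 in the same order. Regions of 20 to 100 kb had 1.62 H3K27ac, 1.91 KDM2B, 7.67 MYC and 12.6 H3K4me3 summits per Mb.

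Counted by domain, H3K4me3 overlapped 646 domains (63.3%), against 11.1% of joined regions of any length. MYC overlapped 497 (48.7%, against 6.51%), KDM2B 253 (24.8%, against 2.46%) and H3K27ac 235 (23%, against 2.39%). Most joined regions (31547) were under 20 kb long and so had less room for a peak, which is why the densities per Mb are given beside these shares. The median domain had 1 H3K4me3 peak and none of H3K27ac, KDM2B or MYC. Under peaks with a deposited q-value below 1e-5, KDM2B overlapped 12.8% of domains and H3K27ac 18.9%.

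**Figure D3:**
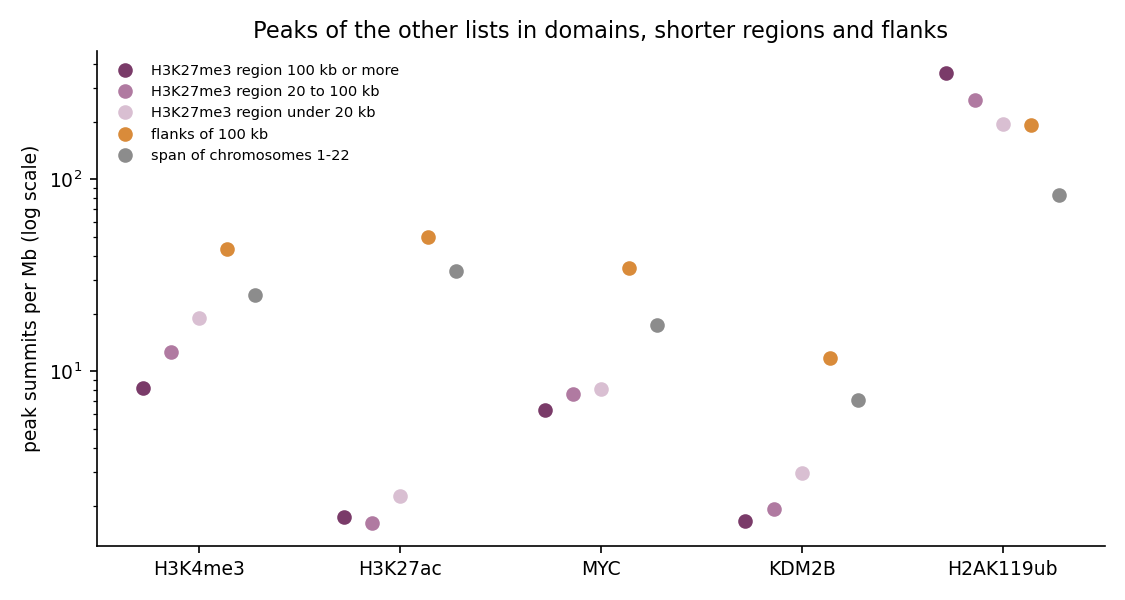
Peak summits per Mb (log scale) for 5 lists, in domains of 100 kb or more, H3K27me3 regions of 20 to 100 kb and under 20 kb, the 100 kb flanks of domains, and the whole span of the autosomes. For H3K4me3, H3K27ac, MYC and KDM2B the flanks lie above all other places and the domains well below them, as for H3K27ac with 50.1 against 1.75, and for H2AK119ub the domains are highest at 358.

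Peaks found inside domains differed in company from peaks of the same list elsewhere. Of the 1743 H3K4me3 peaks in domains, 73.0% overlapped H2AK119ub and 11.1% overlapped H3K27ac, against 27.3% and 61.9% of H3K4me3 peaks elsewhere on the autosomes. Of the 353 KDM2B peaks, 84.1% overlapped H2AK119ub and 19.3% overlapped H3K27ac, against 23.7% and 75.2% elsewhere. H3K4me3 was at 74.8% of these KDM2B peaks and at 78.5% of those elsewhere. Of the 1345 MYC peaks, 84.1% overlapped H2AK119ub and 12% H3K27ac, against 30.7% and 79.3%. H2AK119ub covers much more of the domains than of the rest of the genome, which raises overlap with any peak placed there. H3K27ac peaks cover 0.112% of domain base pairs and 4.79% of the span, which in turn lowers overlap with H3K27ac in domains.

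H3K27ac and H3K4me3 peaks within domains lay less often on H3K27me3 peaks than H2AK119ub did. H3K27me3 peaks make up 79.5% of domain length. They held 50.4% of the H3K27ac summits, 70.1% of the H3K4me3 summits, 68.6% of the KDM2B summits and 72.8% of the MYC summits, while the gaps, 20.5% of domain length, held the remainder.

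The highest peaks inside domains marked a few places. The strongest H3K4me3 peak, with a fold of 57.8, was at chr7:25948175-25953707 and spans MIR148A, a microRNA gene, in a domain of 191 kb (chr7:25898765-26089614). Its centre of enrichment lay 52.2 kb from the nearest edge of the domain, and 31.2% of its length was under H3K27me3 peaks. A KDM2B peak with a fold of 9.17 lay inside it (chr7:25950454-25951280), the second highest KDM2B fold in any domain. The highest, 9.83, was 373 bp from the start of EPB41L4A, a cytoskeletal linker gene (chr5:112418575-112420680).

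Other strong H3K4me3 peaks were 182 bp from a start of GNAO1, a G protein subunit gene (fold 47.6), and 160 bp from the start of HLA-B, which encodes an MHC class I protein (fold 47.5). A further H3K4me3 peak of fold 43.7 (chr14:99682319-99685063) coincided with an H3K27ac peak of fold 12 in the domain of EML1, HHIPL1 and CYP46A1. The highest H3K27ac fold in a domain was 20.2 (chr5:957120-959075), within a MYC peak of fold 14.3 (chr5:956144-960524), in a domain 81.2% covered by H2AK119ub. None of the base pairs of that H3K27ac peak were under an H3K27me3 peak.

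Active marks were concentrated just beyond the edges. Of 2042 domain edges, 50.2% had an H3K4me3 or H3K27ac peak within 20 kb outside, against 22.4% within 20 kb inside. For H3K27ac alone the shares were 43.3% outside and 5.97% inside, for MYC 38.3% and 13.4%, and for KDM2B 16.3% and 3.97%. Of the 1946 edges on the 21 autosomes with start records used here, 17.6% had a start of a protein-coding gene within 20 kb outside and 10.6% inside. Around the edges of regions of 20 to 100 kb, 42.1% had an active mark within 20 kb outside. Counted by domain, 310 had an active mark beyond both edges, 406 beyond 1 edge and 305 beyond neither.

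In steps of 5 kb, the first step outside had the most. An H3K27ac peak was there at 30.1% of edges, an H3K4me3 peak at 30.3%, a MYC peak at 25.3% and a KDM2B peak at 9.01%. From 15 kb outward the H3K27ac share was between 12.8% and 14.1%. In the first step inside it was 4.11%, and deeper inside it was between 0.539% and 0.930%. H2AK119ub coverage was 20.5% in the first step inside, 9.69% in the first step outside and 16.5% at 15 to 20 kb outside, where H3K27me3 peaks again covered 43.1%. The rule ends a domain where no H3K27me3 peak follows for 3 kb, so the low H3K27me3 of the first step outside is set by the rule. Within domains, H2AK119ub covered 34.0% of base pairs under H3K27me3 peaks and 2.99% in gaps, and H3K27ac 0.0656% and 0.291%. The rule may therefore also shape the H2AK119ub dip and part of the rise in active marks at the edge, which was not tested.

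**Figure D4:**
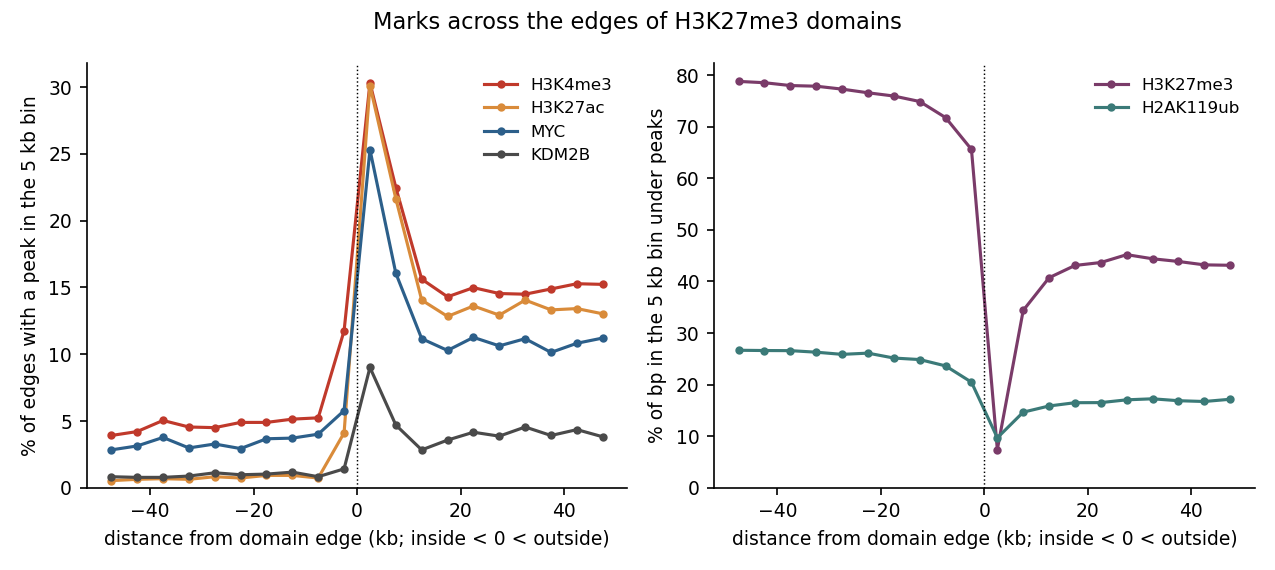
Left, percent of the 2042 domain edges with a peak of each list in 5 kb steps, from 50 kb inside (negative) to 50 kb outside (positive); right, percent of base pairs in each step under H3K27me3 and H2AK119ub peaks. H3K27ac goes from 4.11% in the last step inside to 30.1% in the first step outside, and H2AK119ub dips from 20.5% to 9.69% at the same place; the H3K27me3 dip follows from how edges were set.

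Some domains lay close to the next one. Of 999 gaps between successive domains of a chromosome, 231 were at most 50 kb and 182 at most 20 kb, while the median gap was 361 kb and 110 gaps were over 5 Mb. Of the 231 short gaps, 98 (42.4%) held an H3K4me3, H3K27ac, MYC or KDM2B peak; H3K27ac was in 36.8% and KDM2B in 7.79%. The longest runs with gaps of at most 50 kb had 6 domains each. The run at chr5:160484456-161853462 holds GABRB2 and GABRA6, which encode GABA-A receptor subunits, and ATP10B, and the run at chr2:22185676-23365578 holds no protein-coding gene. A run of 4 domains spans 2406 kb of chromosome 17 (chr17:32552114-34958428) from MYO1D to CCT6B.

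The longest domain, chr17:33287138-34958428, was 1671 kb and held 76.0% of the record of ASIC2, a proton-gated sodium channel gene, with 6 CCL chemokine genes, TMEM132E and most of CCT6B, which encodes a testis form of a chaperonin subunit. H3K27me3 covered 85.6% of it and H2AK119ub 25.4%. It had 8 H3K4me3, 2 H3K27ac and 3 MYC peaks and no KDM2B peak. The next, chr3:1880146-3122457 (1242 kb), held the whole of CNTN4, an adhesion molecule of axons, and of IL5RA, the interleukin-5 receptor of eosinophils. Its H2AK119ub share was 8.52%, and 4 H3K4me3 peaks were its only peaks of the active marks and factors.

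The third, chr20:54813499-55860229 (1047 kb), overlapped no protein-coding gene, had 6 lncRNA genes and was covered to 78.9% by H3K27me3 and 11.2% by H2AK119ub. The domain of NELL1 and SLC6A5 (chr11:20516320-21493339, 977 kb) had 13.7% under H2AK119ub; SLC6A5 encodes a neuronal glycine transporter. The domain of LRFN2, a synaptic adhesion gene (chr6:39931503-40755223, 824 kb), ended inside MOCS1, a gene of molybdenum cofactor synthesis. It held 9.77% of the MOCS1 record, a stretch of 2.96 kb with the start of the gene.

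LMX1A, a homeobox gene of dopaminergic neurons, and RXRG, a nuclear receptor gene, were wholly inside another of the 10 longest domains, with LRRC52, and had no H3K4me3, H3K27ac, KDM2B or MYC summit. The domain of ANO3, BBOX1, SLC5A12, MUC15 and FIBIN (chr11:26379026-27183153, 804 kb) had no peak of the active marks or factors at all and 9.12% under H2AK119ub.

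Also among the 10 longest were the domains of SDK2 (chr17:73348519-74140031, 792 kb), SRRM4 (chr12:118435955-119175866, 740 kb), and GRIK3 with CSF3R (chr1:36469551-37203158, 734 kb). SRRM4 encodes a splicing factor of neurons, GRIK3 a kainate-type glutamate receptor and CSF3R the receptor of a granulocyte growth factor. H2AK119ub covered 62.2% of the SDK2 domain, 13.1% of the SRRM4 domain and 59.1% of the GRIK3 domain. Similar length thus went with different H2AK119ub, and H3K27me3 covered 94.3%, 84.0% and 95.4% of the same 3 domains.

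Some domains carried many promoter-type peaks. The domain at chr17:74214192-74743296, with 14 protein-coding genes including RAB37, TTYH2 and CD300LF, had 17 H3K4me3, 18 MYC, 5 KDM2B and 3 H3K27ac peaks with 64.7% of its length under H2AK119ub. That of EML1, HHIPL1 and CYP46A1 (chr14:99630230-99751845) had 15 H3K4me3 peaks over 14.8% of its length and 5 KDM2B peaks. The domain of TLX1 and LBX1, both homeobox genes (chr10:101069836-101351375), had 14 H3K4me3 peaks and no H3K27ac peak. The domains of POU3F1, a transcription factor gene (chr1:38031384-38730393), and PREX1, a Rac activator gene (chr20:48300794-48759213), had 12 each.

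Besides the domains on chromosomes 14 and 17 just named, 3 others had 5 KDM2B peaks, the most in any domain. They were those of DOCK8 and KANK1 (chr9:201758-683528), of BHLHE23 and MIR124-3 (chr20:63004829-63183379), and of IFITM10 and DUSP8 beside keratin-associated genes (chr11:1569664-1742763). BHLHE23 is a neuronal transcription factor gene and miR-124 a microRNA of neurons. H2AK119ub covered 82.3% of the BHLHE23 domain, 50.2% of the chromosome 11 domain and 17.9% of the DOCK8 domain.

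Of 19126 protein-coding genes on the autosomes, 1332 had at least 50% of their record inside domains (6.96%), 1035 were wholly inside and 1536 were overlapped at all. Domains held 6.24 such genes per Mb, against 6.81 genes per Mb of the span. No protein-coding gene touched 248 domains (24.3%), 64 had 5 or more, and 12% lay within the record of a gene. Of lncRNA genes 9.77% were inside.

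Ion channel genes were inside domains more often than the 6.96% of all genes. Of 132 genes of potassium, sodium and calcium channels, 39 were inside (29.5%). CACNA1C, CACNA1D and CACNA1E, which encode the pores of voltage-gated calcium channels, had 95%, 100% and 97.1% of their records inside. The CACNA1C domain (chr12:2007214-2705553) was 45.5% covered by H2AK119ub. A domain of 467 kb (chr1:110413797-110880852) held KCNA2, KCNA3 and KCNA10, voltage-gated potassium channel genes.

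Of 106 genes of neuronal adhesion and axon guidance, 19 were inside (17.9%), among them CNTN4, CSMD2 (98.8% of its record), EPHB1 (97.3%) and CSMD1 (52.3%, spread over 7 domains). Of 46 genes of GABA, glycine and glutamate receptors, 7 were inside (15.2%). Counting only records wholly inside, the shares were 16.7% for channels, 7.55% for neuronal adhesion and 6.52% for these receptors, against 5.41% of all genes. With a gap of 1 kb the receptor share was 2.17%, against 1.36% of all genes. The receptor list is short, so its count is not read as a difference from all genes. GRIN2B, an NMDA receptor subunit gene, had 98.4% of its record inside, and its main domain (chr12:13516550-13901137) had 4.84% under H2AK119ub and no peak of the active marks or factors. GRM4, a metabotropic glutamate receptor gene, lay wholly in a domain (chr6:33842130-34162358) with 82.1% under H2AK119ub and 6 H3K4me3 and 3 KDM2B peaks.

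Clusters of lineage-restricted genes filled some domains. Of 149 keratin and keratin-associated genes, 37 were inside (24.8%), in 5 domains. A domain of 541 kb (chr12:52328177-52869034) held 20 keratin genes, KRT5 and KRT6A among them, with 89.8% of its length under H3K27me3 and 47.5% under H2AK119ub. Of 422 olfactory, vomeronasal and taste receptor genes, 94 were inside (22.3%), though with a gap of 1 kb in place of 3 kb the share was 0.474%, below the 1.36% of all genes. They sat in 22 domains, and 19 of them, from OR6M1 to OR8B8, sat in chr11:123793508-124481952, with 18.1% under H2AK119ub.

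Of 128 cytokine, chemokine and interferon genes, 24 were inside (18.8%), 10 of them CCL genes in chr17:35867808-36271278, with CCL5, CCL3 and CCL4. Other clusters lay in domains of several genes: 17 protein-coding genes with SPRR2B, IVL and SPRR3, of the outer layers of skin, in chr1:152795664-153096686, and 16 with KLK6, KLK5 and KLK7, kallikrein proteases, in chr19:50806955-51093319. Their H2AK119ub shares were 23.3% and 47.5%. Of 40 lymphoid and myeloid markers 7 were inside (17.5%), IKZF1, IKZF3, ITGAM, MS4A1, CD2 and MPO among them; the share was 0% against 1.36% of all genes with a gap of 1 kb and 2.50% against 3.68% with a length of at least 200 kb.

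Of 142 developmental transcription factors, 22 were inside (15.5%). PAX7, PAX2, GATA4, POU3F3 and TBX5 were wholly inside, and HOXC11, HOXC12 and HOXC13 shared a domain of 208 kb. The PAX7 domain (chr1:18620439-18873121) was 95.5% covered by H3K27me3 and 58.6% by H2AK119ub and had none of the other peaks. The POU3F3 domain (chr2:104597625-105006406) had 15.6% under H2AK119ub. Of 36 luminal and epithelial genes, 3 were inside (8.33%): OVOL2, a repressor of mesenchymal genes, and TFF1 and TFF3, secreted trefoil factors of luminal cells. That share was 0% with a gap of 1 kb, below all genes.

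Ribosomal protein and ZNF genes were inside less often than the 6.96% of all genes. Of 153 ribosomal protein genes 1 was inside (0.654%), MRPL23 with 71.2% of its record, and of 497 ZNF genes 7 were inside (1.41%), ZNF536 and ZNF423 among them. None of 37 Polycomb subunit genes was inside or overlapped. Of 86 amino acid enzyme and carrier genes 3 were inside (3.49%): SLC6A5, SLC6A19 and PHGDH. Of 37 mesenchymal and basal genes 1 was inside (2.70%), KRT5. With a gap of 1 kb the same 2.70% was above the 1.36% of all genes. The Polycomb, amino acid and mesenchymal lists are short, so their counts are not read as a difference from all genes.

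Cadherins and protocadherins had 4 of 97 inside (4.12%), CDH23, CDH22, CDH26 and FAT2, and this share was above all genes with a gap of 1 kb (2.06% against 1.36%) and with H3K27me3 peaks of q below 1e-5 (4.12% against 3.72%). Ligands and receptors of WNT and TGF-beta signalling had 3 of 76 inside (3.95%), BMP7, GDF10 and GDF2. They were above all genes with peaks of q below 1e-5 (3.95% against 3.72%) and with a length of at least 50 kb (11.8% against 10.7%). The BMP7 domain (chr20:57080398-57349481) had 76.0% under H2AK119ub, 8 MYC and 2 KDM2B peaks.

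**Figure D5:**
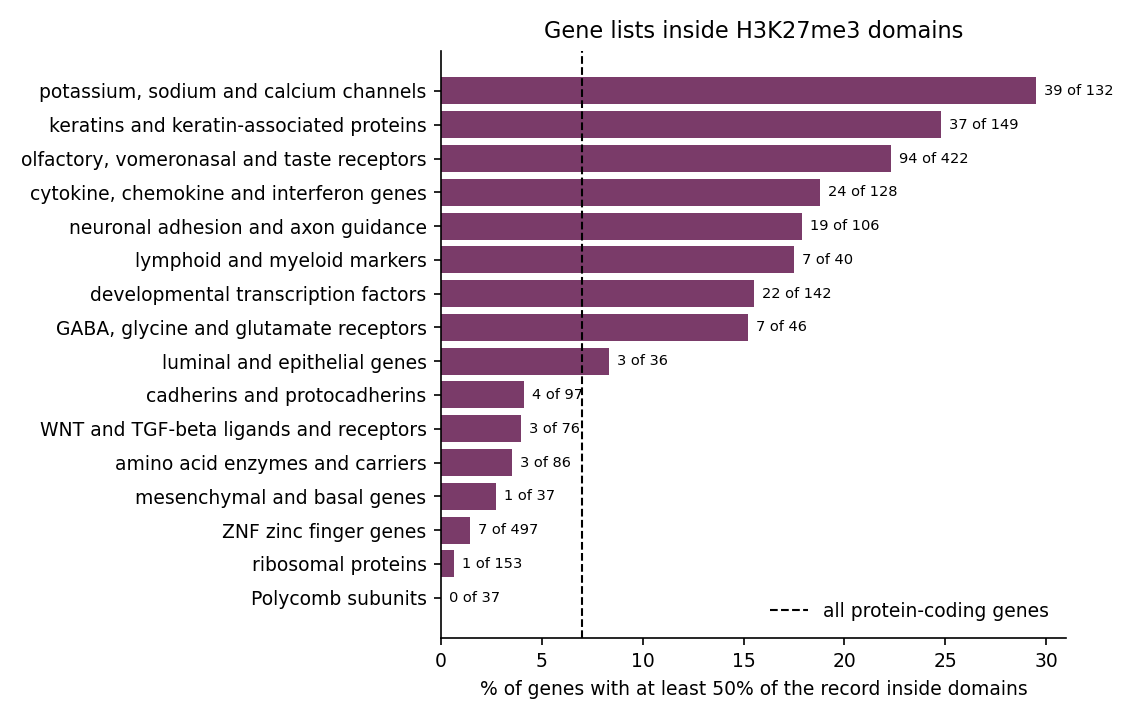
Percent of the genes of each of 16 lists with at least 50% of their record inside domains, with counts beside the bars and a dashed line at the 6.96% of all protein-coding genes. Channels lead at 29.5%, Polycomb subunits are at 0%, and of the lists on either side of the line olfactory receptors, lymphoid markers, luminal genes, cadherins, mesenchymal genes and WNT and TGF-beta genes changed sides under at least 1 other way of making domains.

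PHGDH, the first enzyme of serine synthesis, was inside a domain and had peaks of all other lists in its record. The 32.3 kb record (chr1:119711934-119744215) lay wholly inside a domain of 140 kb (chr1:119677363-119816862), 18.3% of which was under H2AK119ub. The record had 22 H2AK119ub summits, 2 H3K4me3, 1 H3K27ac, 1 KDM2B and 1 MYC summit. By contrast, SLC6A5 had an H3K4me3 summit within its record and no H3K27ac, KDM2B or MYC summit. Genes known to be active in this line, 8 in all (VIM, CD44, AXL, EGFR, CAV1, FOSL1, LAMB3 and PLAU), were looked up, and none touched a domain. The luminal genes ESR1, GATA3, FOXA1, KRT8, EPCAM and CDH1 did not touch a domain either. Of all protein-coding genes, 8.03% were overlapped at all. With so few genes looked up, no overlap in either group is unremarkable, and it does not check the label.

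Promoter records matched 15101 protein-coding genes on 21 of the autosomes with 21156 starts, of which 1285 starts were inside domains. Of the starts inside, 89.6% had an H2AK119ub peak within 1 kb (33.5% of all starts), 14% had H3K4me3 (68.7% of all), 9.34% had MYC (63.5%), 6.61% had KDM2B (48.5%) and 2.41% had H3K27ac (63.3%). H3K4me3 together with H2AK119ub was at 170 of the 180 starts with H3K4me3. Of these 180 starts, 29 also had H3K27ac.

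Promoters inside domains were poorer in CG. The 250 bases upstream held a median of 6 CG pairs inside domains and 17 elsewhere; a CG reads the same on both strands. At least 1 CG was in 96.8% of all such windows, 93.2% of those inside domains. Windows with 14 or more CG pairs made up 31.2% of starts inside and 59.2% elsewhere. The difference in H3K4me3 was present at each CG content. With 14 or more CG pairs, 29.9% of starts inside had H3K4me3, against 90.4% elsewhere; with 5 to 13 it was 12.9% against 65.5%, and with 0 to 4 it was 3.61% against 26.8%.

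Of the 85 starts inside domains with KDM2B, 71 had 14 or more CG pairs. KDM2B was within 1 kb of 17.7% of starts with 14 or more CG pairs, 3.97% of those with 5 to 13 and 0.344% of those with 0 to 4; elsewhere the shares were 72.0%, 35.7% and 6.65%. H2AK119ub inside domains was at 98.3%, 94.4% and 81.1% of starts in the same order, BBOX1 and LRRC52 with 0 CG pairs among the last.

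Starts with H3K4me3 were closer to edges than others and less often on H3K27me3 itself. Of the 180, 11.7% were within 5 kb of an edge, and 56.7% lay on an H3K27me3 peak, against 3.98% and 86.7% of the 1105 starts without H3K4me3. Of the 31 starts with H3K27ac, 10 were within 5 kb of an edge, MOCS1 being an example. Away from the edges, at more than 5 kb, 13% of starts had H3K4me3, 6.15% KDM2B and 1.72% H3K27ac.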

How the data were processed

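ChIP-seq peak lists of MDA-MB-231 cells on hg38 were used, with 1 list per target and 2 libraries in each group. The submitters' processing notes name MACS2 2.2.7.1, Bowtie2 2.4.5, SAMtools 1.6 and Trim Galore, with no roles or order. The control, any pooling of libraries and the calling settings are not given in the sources used here. The lists are in narrow-peak form, and chromatin was digested with enzyme per the labels' protocols, so a broad domain can appear as many peaks. Each deposited peak has a score, a fold (the authors' ratio of signal over background), −log10 values of p and q and a summit position. Folds ranked peaks within a list, and q-values served as a filter.

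With Python 3.11.15, pandas 2.3.3 and numpy 2.4.6, H3K27me3 peaks with gaps of at most 3 kb were joined, and regions of at least 100 kb kept. Overlap meant at least 1 bp, and summits were counted per Mb. Flanks were 100 kb on each side, without domains. The scripts were tested on simulated data. Gene, promoter and microRNA records came from RefSeq, GRCh38.p14. Promoter and microRNA records cover 21 autosomes, and chromosome 8 was left out of counts over them. Promoter records matched 15101 protein-coding genes, against 19126 on all autosomes, so genes of other chromosomes also lacked a start. A gene was inside when 50% of its record was. The 16 gene lists were written from general knowledge. Domains and lists were chosen with earlier results of these data known. Named domains were the 10 longest, 5 at each end of H2AK119ub share, the 5 with the most H3K4me3, KDM2B or genes, and 5 on each side of the length limit. Named genes were up to 6 per long domain or list with the most base pairs inside; names at the highest peaks, the microRNAs, DSCAML1 and members of gene clusters were chosen after their values were seen. No test was run, since no list resolves libraries. Alternatives changed the gap, length, coverage, q-value, zone, flank and gene rule. Some results that this rule would name are not reported here.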

Additional observations from a re-analysis of the deposited data

How the results depend on the processing

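The number of domains depended on the joining rule, and 6 gene lists changed sides against all genes, as given with their values above. A gap of 1 kb in place of 3 kb gave 280 domains of 44.7 Mb in all, a median H2AK119ub share of 41.0%, overlap of 13.6% of domains with H3K27ac and 16.8% with KDM2B, an active mark outside 36.4% of edges and 260 genes inside. A gap of 5 kb gave 323 Mb, 15.3% under H2AK119ub, 29.4% with H3K27ac and 55.9% of edges. H3K27me3 peaks of q below 1e-5 gave 581 domains, 108 Mb, 32.1% under H2AK119ub, 16.5% with H3K27ac, 47.3% of edges and 712 genes. A length of at least 50 kb gave 2352 domains, 15.7% under H2AK119ub, 15.1% with H3K27ac, 17.0% with KDM2B, 47.8% of edges and 2052 genes. A length of at least 200 kb gave 334 domains, 118 Mb, 23.7% under H2AK119ub, 31.1% with H3K27ac, 33.8% with KDM2B, 55.2% of edges and 704 genes. An active mark was outside 42.3% of edges within 10 kb and 64.0% within 50 kb. Other lists at q below 1e-5 overlapped 18.9% (H3K27ac) and 12.8% (KDM2B) of domains. The median H2AK119ub share was 49.5% with its peaks joined across 3 kb and 10.0% with its peaks of q below 1e-5. These alternatives change the domains or the peaks counted by construction. The other 14 values of these 7 measures (number and total length of domains, H2AK119ub share, overlap with H3K27ac and KDM2B, edges, genes inside) stayed within their intervals, or within 1.5 times for counts. These are 95% intervals of the main value, taken over domains, edges, peaks or genes as if these were independent. They hold no error between libraries and serve only as a yardstick for change. Of the values of other measures, 110 moved beyond these limits and 116 did not. With a gap of 1 kb, H3K27ac summits per Mb were 0.918 in domains and 33.3 in flanks, and MYC peaks of q below 1e-5 overlapped 34.5% of domains. No paired analysis was possible because each target has 1 list for both libraries, and leaving out a library could not be run for the same reason. Read depth is unknown, so a place without a peak is not shown to lack the mark.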

Other observations

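Chromosome X was outside the rule. The same joining gave 3 regions of at least 100 kb there, 0.387 Mb in all, the longest 167 kb.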
